A study of Mus musculus with 12 samples.

Results

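Genes used as markers of the subiculum and of the layers of the cerebral cortex were followed in nuclear RNA from mouse hippocampus. The set has 7 members, Rorb, Foxp2, Bcl11b, Cux1, Cux2, Fn1 and Tle4. They were taken by symbol from a table of 24015 rows, where all 7 were listed, and all 7 passed the filter on low counts that left 15668 genes for testing. The 12 libraries were titled Early, Late, Reactivated and Basal, with 3 libraries per title. All mice carried ArcCreERT2, a Cre recombinase that needs tamoxifen and is made where the activity-regulated gene Arc is on, together with a floxed-stop eYFP reporter at R26R. The genotype field reads +/+ in every library. Neurons in which Arc was active around the time of the drug were thereby labelled with yellow fluorescent protein.

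Every animal in the protocol received 4-hydroxytamoxifen 1 h before contextual fear conditioning, after 24 h in the dark. Brains were taken 1.5 to 2 h after conditioning, or 5 days after it with 48 h of darkness in between, and part of these later mice first met the tone and context again. A library is a pool of 10 to 12 mice and 10000 nuclei that were fixed with 1% paraformaldehyde, stained for NeuN, Arc and GFP and sorted. The treatment field is the same for all 12 libraries and names day 0 as the collection day, so a group is known only by its title. No label says which sorting gate belongs to which title, and no source used here gives the age or sex of the mice.

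The subiculum is the output region of the hippocampal formation and lies between field CA1 and the entorhinal cortex. Neurons of the cortical layers are told apart by transcription factors that fix their projection targets, and many of these factors are also made in the hippocampus itself. Rorb, Cux1 and Cux2 are factors of upper-layer neurons, Bcl11b of deep-layer neurons that project below the cortex, and Foxp2 and Tle4 of corticothalamic neurons. Fn1 encodes fibronectin, which is made by pyramidal neurons of the subiculum and also by blood vessels and fibroblasts. In bulk RNA, more nuclei of a type and more RNA per nucleus cannot be told apart, so a level is given here as a level of RNA in the sorted pool.

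The stretch before the annotated start is shown for the factor genes with large rises in Late that have an entry in the RefSeq promoter table (build GRCm38.p6). The table held windows for 5 of the 7 genes, 8 windows in all, and Foxp2 and Fn1 had none. The 250 bases before the start are printed 5′ to 3′ on the gene's strand, which is the minus strand for each. Capitals mark a match to TGANTCA, where N is any base. It is a loose form of the motif bound by the AP-1 factors that neuronal activity induces.
Rorb, start 1, chr19:19111197-19111446: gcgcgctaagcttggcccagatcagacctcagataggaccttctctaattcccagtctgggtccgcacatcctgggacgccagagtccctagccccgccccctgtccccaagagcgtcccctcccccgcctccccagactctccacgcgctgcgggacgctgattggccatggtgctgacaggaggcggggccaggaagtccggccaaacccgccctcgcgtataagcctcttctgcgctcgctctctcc
Rorb, start 2, chr19:19001118-19001367: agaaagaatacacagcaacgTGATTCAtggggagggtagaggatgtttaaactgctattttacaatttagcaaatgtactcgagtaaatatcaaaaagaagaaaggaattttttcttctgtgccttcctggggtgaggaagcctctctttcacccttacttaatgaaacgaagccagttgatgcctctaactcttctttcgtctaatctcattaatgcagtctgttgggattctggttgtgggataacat
Bcl11b, chr12:108003415-108003664: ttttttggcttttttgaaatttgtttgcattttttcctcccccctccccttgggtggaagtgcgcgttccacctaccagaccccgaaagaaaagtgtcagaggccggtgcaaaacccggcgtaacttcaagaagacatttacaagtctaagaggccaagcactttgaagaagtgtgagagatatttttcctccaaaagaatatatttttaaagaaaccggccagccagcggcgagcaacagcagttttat

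The windows of Rorb differed in base composition, with 66.0% G or C before start 1 and 39.2% before start 2, and that of Bcl11b had 44.8%. The median over all 32851 windows in the table was 52.4%. The 3 motifs were searched on both strands, where matches of one may share letters with another. TGANTCA was found in 1 of the 8 windows, that of Rorb start 2, and in 6.75% of all windows. The match of Rorb has T at the open base, where the usual AP-1 site has C or G. TGACGTCA, the cyclic AMP response element, and AGGTCA, the core site of the ROR receptors, were found in none of the 8, against 1.55% and 14.0% of all windows. A match is a run of letters and not a bound site, and the counts are per gene and do not tell the starts of Rorb apart. The reads were aligned to build mm9 per the submitters' notes, and no position was carried between builds.

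Total counts were 4838166 to 11120255 per library. The share taken by Rn45s, the ribosomal RNA precursor, was 8.51% ± 3.83 in Early, 33.4% ± 4.76 in Late, 22.4% ± 4.69 in Reactivated and 7.36% ± 4.19 in Basal (SD, n = 3 each). All 6 libraries of Late and Reactivated exceeded all 6 of Early and Basal, so the share and these groups cannot be told apart. Rbfox3, the gene of the sorted protein NeuN, had 1751 ± 245 normalized counts in Early, 2267 ± 112 in Late, 1853 ± 61.3 in Reactivated and 1779 ± 197 in Basal, and rose 1.27-fold in Late against Basal (adjusted p = 0.0425, edgeR). A normalized count is a count divided by the TMM-scaled library size relative to the geometric mean of the libraries. A gene is said to rise or fall where edgeR's quasi-likelihood test gave an adjusted p under 0.05, with Benjamini-Hochberg adjustment over the 15668 genes, and SE is the standard error of the log2 fold change. When all 4 groups were compared in one test, it passed for 6 of the 7 markers, all but Cux1, and for 58.6% of all genes. The call of Tle4 in that test was the weakest (adjusted p = 0.0418).

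**Figure D1:**
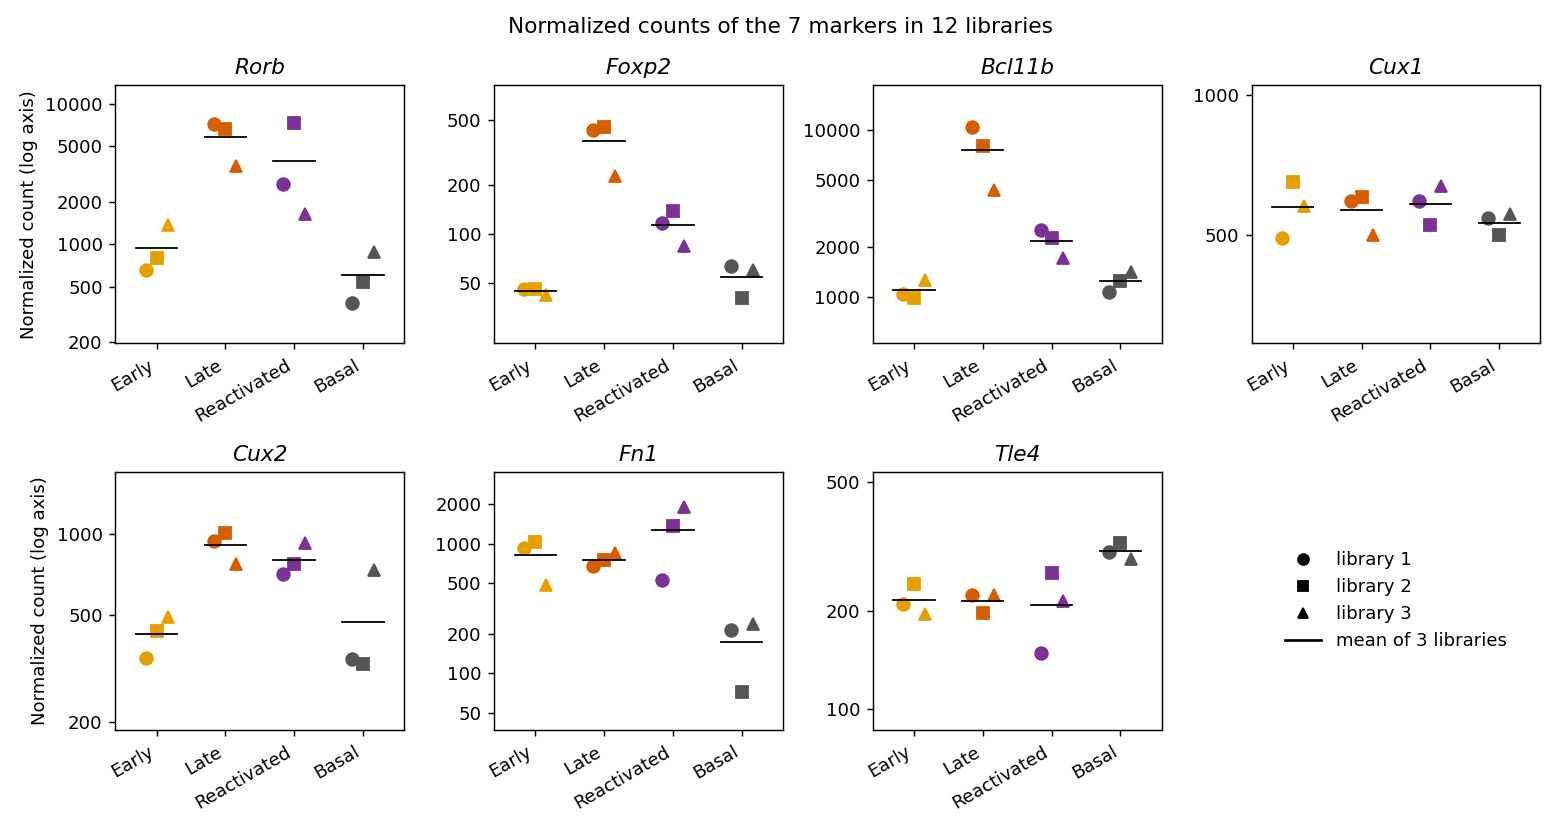
Normalized counts of each marker on a log axis, with 1 point per library and a bar at the mean of 3 libraries, for Early, Late, Reactivated and Basal. Foxp2 and Bcl11b stood highest in all 3 Late libraries, Fn1 was low in Basal only, and Cux1 lay between 492 and 649 in every library.

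Rorb, a nuclear receptor of the ROR family that marks neurons of the cortical input layer, was many times higher in Late and Reactivated than in Early and Basal. It had 657, 797 and 1383 normalized counts in the Early libraries, 7148, 6675 and 3634 in Late, 2697, 7370 and 1638 in Reactivated and 381, 539 and 882 in Basal. All Late and Reactivated libraries were above all Early and Basal ones, and Reactivated 2 was slightly above the highest Late library. In Late against Basal Rorb rose 9.64-fold (log2 fold change 3.27 ± 0.50 SE, adjusted p = 0.000112), and in Late against Early 6.15-fold (2.62 ± 0.49, adjusted p = 0.000728). Reactivated libraries were 6.47-fold above Basal (2.69 ± 0.49, adjusted p = 0.000947) and 4.13-fold above Early (2.04 ± 0.48, adjusted p = 0.00818). In the order of levels, the neighbours Late and Reactivated did not differ beyond their spread (-0.58 ± 0.46, adjusted p = 0.405), nor did Early and Basal (0.65 ± 0.47, adjusted p = 0.580). Reactivated 2 decided part of this: without it the log2 fold change of Reactivated was 1.84 against Basal and 1.20 against Early, both still called, and -1.42 against Late, which then passed (adjusted p = 0.0233). With libraries scaled to the same total, a scaling that put the median of all genes at -0.87 in Late against Basal and -0.78 in Late against Early, Rorb was at 2.42 and 1.86 in these comparisons, both called.

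Bcl11b, the zinc finger factor also known as Ctip2, which is made in CA1 and granule cells as well as in deep cortical layers, peaked in Late. Its normalized counts were 1030, 979 and 1252 in Early, 10441, 8111 and 4395 in Late, 2522, 2264 and 1705 in Reactivated and 1070, 1247 and 1402 in Basal. The groups Late and Reactivated overlapped with no other group, while Early and Basal overlapped. Bcl11b rose 6.17-fold in Late against Basal (log2 fold change 2.62 ± 0.26, adjusted p = 2.63e-06) and 7.03-fold in Late against Early (2.81 ± 0.26, adjusted p = 2.01e-06). In Reactivated against Late it fell 3.54-fold (-1.82 ± 0.25, adjusted p = 0.000125). The rises of Reactivated over Basal (1.74-fold, 0.80 ± 0.25, adjusted p = 0.0200) and over Early (1.99-fold, 0.99 ± 0.25, adjusted p = 0.0115) were smaller. The first of these calls ended without Basal 1 (0.70), Basal 2 (0.81) or Reactivated 1 (0.68), and the second without Early 1 (0.95) or Early 2 (0.92). The first also ended with the same total (0.31, adjusted p = 0.188), under which Late was at 1.74 against Basal and 2.03 against Early, both called. That scaling put the median of all genes at -0.46 in Reactivated against Basal. Early against Basal did not pass (-0.19 ± 0.25, adjusted p = 0.824).

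Foxp2, a forkhead repressor of corticothalamic neurons, followed the same order of groups as Bcl11b at a low count. It had 45.9, 46.2 and 42.6 normalized counts in Early, 434, 450 and 227 in Late, 117, 138 and 84.4 in Reactivated and 63.5, 40.4 and 60.3 in Basal. Every Late library was above every Reactivated one, and every Reactivated one above Early and Basal. Foxp2 rose 6.72-fold in Late against Basal (log2 fold change 2.75 ± 0.28, adjusted p = 3.04e-06) and 8.20-fold in Late against Early (3.04 ± 0.28, adjusted p = 1.83e-06). It also rose in Reactivated, 2.06-fold against Basal (1.04 ± 0.28, adjusted p = 0.00956) and 2.51-fold against Early (1.33 ± 0.28, adjusted p = 0.00496). In Reactivated against Late it fell 3.26-fold (-1.71 ± 0.26, adjusted p = 0.000286). With the same total the call in Reactivated against Basal ended (0.57, adjusted p = 0.0952), beside a median of all genes of -0.46. Late was then at 1.88 against Basal and 2.24 against Early, both called. Early against Basal did not pass (-0.29 ± 0.29, adjusted p = 0.747). In Rorb, Bcl11b and Foxp2 alike, Late 3 was the lowest Late library.

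Cux1 and Cux2, paired homeobox factors of upper cortical layers, differed in what passed. Cux1 had 492, 649 and 577 normalized counts in Early, 591, 602 and 498 in Late, 591, 524 and 635 in Reactivated and 541, 498 and 552 in Basal. The 4 groups overlapped. Cux1 averaged 572 ± 78.5 normalized counts in Early, 564 ± 57.4 in Late, 583 ± 56.1 in Reactivated and 531 ± 28.6 in Basal. It passed in none of the 6 comparisons with TMM scaling, where its log2 fold changes ran from -0.02 ± 0.14 in Late against Early to 0.14 ± 0.14 in Reactivated against Basal. With the same total Cux1 was called lower in Late against Basal (-0.77) and against Early (-0.79), where that scaling put the median of all genes at -0.87 and -0.78. Cux2 had 348, 437 and 491 normalized counts in Early, 949, 1011 and 778 in Late, 710, 774 and 929 in Reactivated and 345, 330 and 740 in Basal. Late was above all Early and Basal libraries, while Basal 3 lay within the range of Reactivated.

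Cux2 rose 1.92-fold in Late against Basal (log2 fold change 0.94 ± 0.26, adjusted p = 0.00756) and 2.14-fold in Late against Early (1.10 ± 0.26, adjusted p = 0.00365). It was also higher in Reactivated, 1.70-fold against Basal (0.76 ± 0.26, adjusted p = 0.0297) and 1.89-fold against Early (0.92 ± 0.26, adjusted p = 0.0190). Reactivated and Late did not differ beyond their spread (-0.18 ± 0.25, adjusted p = 0.659), nor did Early and Basal (-0.16 ± 0.26, adjusted p = 0.874). All 4 calls ended with the same total (0.12, 0.34, 0.32 and 0.54, in the order given). That scaling put the median of all genes at -0.87, -0.78, -0.46 and -0.37 in the same order. The call against Basal in Reactivated ended without Basal 1 (0.58), Basal 2 (0.56) or Reactivated 3 (0.65) and in a fit of both groups alone (0.75). It also ended with the same total after leaving out Rn45s (0.55). The call against Early in Reactivated ended without Early 1 (0.79), Early 2 (0.94) or Reactivated 3 (0.80). Cux1, Cux2 and Fn1 overlap an antisense gene in GENCODE M21, and no source used here says whether counting used the strand, so reads of such partners may be included. Apol7d, the partner of Fn1, was itself counted, with 29 counts over the 12 libraries. The antisense partners of Cux1 and Cux2 were not listed among the counted genes.

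Fn1, the fibronectin gene, was the one marker of the 7 called higher in Early against Basal as well. It had 920, 1027 and 484 normalized counts in Early, 670, 742 and 846 in Late, 526, 1360 and 1898 in Reactivated and 215, 71.8 and 241 in Basal. Every library of the other groups was above every Basal library, and Early, Late and Reactivated overlapped among themselves. Against Basal, Fn1 rose 4.57-fold in Early (log2 fold change 2.19 ± 0.45, adjusted p = 0.00784), 4.25-fold in Late (2.09 ± 0.45, adjusted p = 0.00150) and 7.13-fold in Reactivated (2.83 ± 0.46, adjusted p = 0.000420). These comparisons share the Basal libraries. Late against Early (-0.10 ± 0.42, adjusted p = 0.862), Reactivated against Early (0.64 ± 0.42, adjusted p = 0.271) and Reactivated against Late (0.75 ± 0.42, adjusted p = 0.226) did not pass, though the last did without Reactivated 1 (1.11, adjusted p = 0.0422). Without Basal 3 and Early 3 together, a setting added after seeing the data, the rise in Early was 2.79. With the same total the rise in Late against Basal was 1.28, still called (adjusted p = 0.0202).

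Markers of blood vessels and fibroblasts, which also make Fn1, were measured beside it, and their part in its level was not tested. Of 18 such genes 11 were tested, and 0 rose and 0 fell in Early against Basal, 0 and 4 in Late and 0 and 1 in Reactivated. Their summed normalized count was 140 to 157 in Early, 139 to 174 in Late, 176 to 522 in Reactivated and 152 to 880 in Basal. The pericyte channel gene Kcnj8 was at 0 in all Early and Late libraries, and Ly6c1, an endothelial surface gene, and Lum, the fibroblast proteoglycan lumican, were at 0 in all Late libraries. With list sums this low in Early and Late, a 0 is not read as a loss. Col1a1, a fibroblast collagen, averaged 21.3 normalized counts in Early, 47.6 in Late, 49.5 in Reactivated and 22.4 in Basal, with all Late libraries above all Basal ones, and did not pass in Late against Basal (log2 fold change 1.13, adjusted p = 0.0981). The highest sums were 880 in Basal 1 and 522 in Reactivated 1. Among the 8 genes of integrins, the receptors that bind fibronectin or related matrix proteins, Itgb3 (5.88-fold) and Itga3 (1.65-fold) rose in Late against Basal, while Itga8 (2.30-fold) and Itga4 (2.07-fold) fell. These 2 rises and 2 falls among 8 genes lay near the shares of all genes, 25.4% and 23.6%. In Reactivated against Late Itgb3 fell 5.44-fold and the other 7 did not pass, where 10.3% of all genes rose and 12.3% fell.

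Tle4, a Groucho-family corepressor of corticothalamic neurons, was the only marker called lower against Basal. Its normalized counts were 211, 242 and 196 in Early, 225, 197 and 225 in Late, 149, 262 and 215 in Reactivated and 304, 324 and 289 in Basal. Every Basal library was above every other library. Tle4 fell 1.42-fold in Late (log2 fold change -0.50 ± 0.18, adjusted p = 0.0331) and 1.46-fold in Reactivated (-0.54 ± 0.18, adjusted p = 0.0290). Early was at nearly the same value without passing (-0.50 ± 0.18, adjusted p = 0.141), and it passed without Reactivated 1 (adjusted p = 0.0427). Both calls lay near the threshold. That in Late ended without Basal 1 (-0.54), Basal 2 (-0.46), Late 1 (-0.53), Late 2 (-0.44) or Late 3 (-0.53). That in Reactivated ended without Basal 1 (-0.56), Basal 2 (-0.50), Reactivated 1 (-0.36) or Reactivated 3 (-0.56), and in a fit of both groups alone (-0.57). Late against Early, Reactivated against Early and Reactivated against Late lay between -0.05 and -0.01, with adjusted p of 0.877 or more. The same total moved Late against Basal to -1.35, and put Late against Early at -0.76, beside a median of all genes of -0.78 under that scaling.

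**Figure D2:**
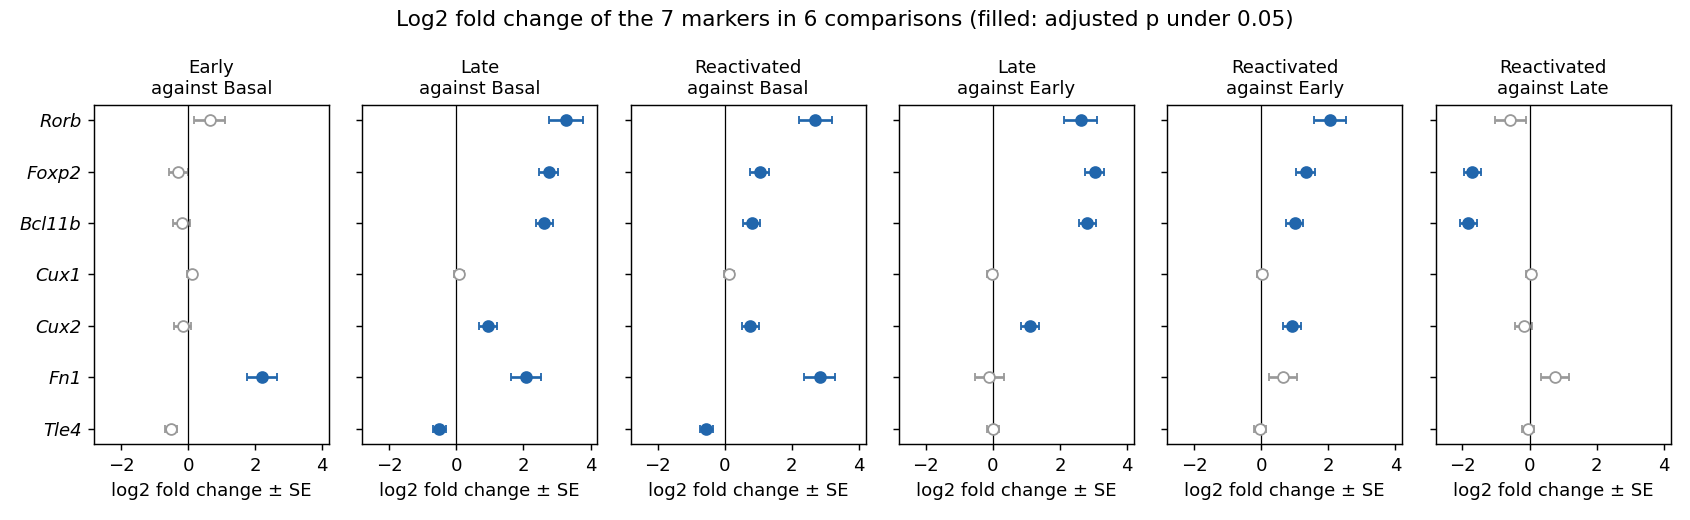
Log2 fold change ± SE of the 7 markers in each of the 6 comparisons, with filled points where the adjusted p was under 0.05. In Late against Basal the points of Rorb, Foxp2, Bcl11b and Fn1 lie above 2, and in Reactivated against Late those of Foxp2 and Bcl11b lie below -1.

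Counted over the set, 1 of the 7 markers rose and 0 fell in Early against Basal, where 6.03% of all genes passed, 3.36% upward and 2.66% downward. In Late against Basal 5 rose and 1 fell, where 49.1% of all genes passed, 25.4% upward and 23.6% downward, and the median log2 fold change was 2.09 for the markers and -0.03 for all genes. In Reactivated against Basal 5 rose and 1 fell, where 39.4% of all genes passed, 20.6% upward and 18.8% downward, with medians of 0.80 for the markers and 0.02 for all genes.

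In Late against Early 4 markers rose and 0 fell, where 42.3% of all genes passed, 22% upward and 20.4% downward. In Reactivated against Early 4 rose and 0 fell, where 26.2% passed, 13.5% upward and 12.7% downward. In Reactivated against Late 0 rose and 2 fell, where 22.6% passed, 10.3% upward and 12.3% downward. The libraries did not overlap for 2 of the 7 markers in Early, 6 in Late and 5 in Reactivated against Basal, beside 23.4%, 62.5% and 45.8% of all genes. They did not overlap for 4 markers in Late against Early, 4 in Reactivated against Early and 2 in Reactivated against Late, beside 59.9%, 39.1% and 39.7% of all genes. With large shares of all genes passing, these counts describe the 7 markers and single out nothing about them.

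The rises of Rorb, Foxp2 and Bcl11b lay in the groups with the higher Rn45s share, and within groups the genes followed the share only in part. Within Late, the share was 35.7%, 36.5% and 27.9% in Late 1, 2 and 3, and Late 3 was lowest for all 3 genes. Within Basal and within Early, library 3 had the highest share, 12.2% and 12.9%, and the highest Rorb and Bcl11b of its group. Foxp2 did not follow it there, being lowest in Early 3 and highest in Basal 1, which had the lowest share of its group. In Reactivated the share was 27.7%, 18.8% and 20.7%, and the highest Rorb and Foxp2 were in Reactivated 2, which had the lowest share, while the highest Bcl11b was in Reactivated 1, which had the highest. With the log2 share as a covariate, 7 of the 23 marker calls over the 6 comparisons remained. They were Foxp2 in Late against Basal (2.36), Late against Early (2.68) and Reactivated against Late (-1.60), Bcl11b in Late against Early (2.03) and Reactivated against Late (-1.59), and Fn1 in Early (2.18) and Reactivated (3.24) against Basal. These 7 calls also held under every other setting tried. For Late and Reactivated against Early and Basal the covariate fit cannot separate the share from the groups. No Early or Basal library reached the share of a Late or Reactivated one. Rorb kept no call, with 1.85 in Late and 1.73 in Reactivated against Basal, and neither did Bcl11b (1.74 and 0.15), Cux2 (-0.33 and -0.15) or Tle4 (0.0098 and -0.17) in these comparisons. Fn1 lost its call in Late against Basal at a larger value (2.67, adjusted p = 0.105), and Foxp2 lost its calls in Reactivated against Basal (0.77) and against Early (1.08). Against Early, the other calls lost were those of Rorb in Late (1.35) and Reactivated (1.23), of Cux2 in Late (-0.11) and Reactivated (0.07) and of Bcl11b in Reactivated (0.44).

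**Figure D3:**
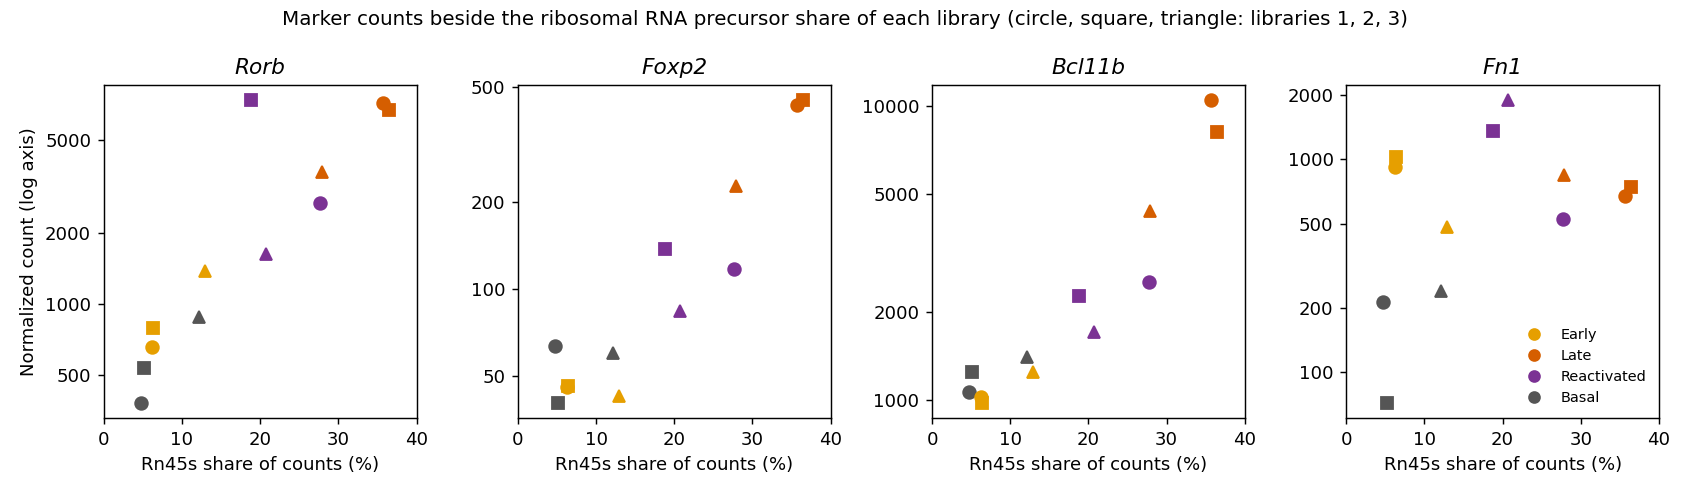
Normalized counts of Rorb, Foxp2, Bcl11b and Fn1 on a log axis against the share of counts that Rn45s took in each library, in percent, with colours for the groups. The 3 Late libraries, at 27.9% to 36.5%, lie at the upper right for Rorb, Foxp2 and Bcl11b, and Reactivated 2 stands above the other points near its share for Rorb.

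Genes of other cell types changed in Late too, in both directions, and their part in the marker levels was not tested. Among all genes 25.4% rose and 23.6% fell in Late against Basal. Among 10 microglia genes, of which 6 were tested, 2 rose and 3 fell in Late against Basal, with Cx3cr1 and Itgam among those that rose and P2ry12 and Csf1r among those that fell. Trem2 was near 0, at 0.752 ± 0.679 in Late and 0.910 ± 0.791 in Basal. The summed count of the list was 5676 to 9764 in Late and 727 to 818 in Basal, and 855 to 2138 in Reactivated. Cx3cr1 alone averaged 3841 in Late and 330 in Basal, while the median log2 fold change of the 6 tested genes was -0.42. The oligodendrocyte list of 10 genes, with 8 tested, summed to 4737 to 9958 in Late and 1928 to 2461 in Basal. Of its genes 3 rose and 4 fell, with a median log2 fold change of -1.02, and Aspa was at 0 in all Late libraries. In both lists, as in Rorb, Foxp2 and Bcl11b, Late 3 was the lowest of its group. Of 10 astrocyte markers 1 rose and 3 fell in Late against Basal. Genes of the hippocampal fields moved as well. In Late against Basal 1 of 14 markers of dentate granule cells rose and 11 fell, and in Early against Basal 0 rose and 11 fell. Of 11 markers of fields CA3 and CA2, 6 rose and 1 fell in Late against Basal, and of 19 interneuron markers 0 rose and 8 fell. The CA3 and CA2 list had 5 up and 0 down in Early, and 7 up and 0 down in Reactivated against Basal. The interneuron list had 2 up and 5 down in Early, and 2 up and 8 down in Reactivated against Basal. Over all genes 3.36% rose and 2.66% fell in Early, and 20.6% rose and 18.8% fell in Reactivated against Basal.

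Other genes of the cortical layers, and CA1 markers as well, were called higher more often than lower in Late and Reactivated against Basal. Among all genes 25.4% rose and 23.6% fell in Late, and 20.6% rose and 18.8% fell in Reactivated. In Early against Basal 3.36% of all genes rose and 2.66% fell. Of 12 further upper-layer genes tested, 9 rose and 1 fell in Late against Basal, with a median log2 fold change of 1.30, and 6 rose and 1 fell in Reactivated against Basal. Mdga1, a cell adhesion protein, rose 3.67-fold and Pou3f1, a POU homeobox factor, 5.71-fold in Late, while Rasgrf2, an exchange factor for Ras, fell 2.97-fold. In Early against Basal 3 of the 12 rose, Mdga1 (2.71-fold) and Pou3f1 (2.61-fold) among them, and 1 fell, Rasgrf2 (1.94-fold). Of 16 further deep-layer genes, 9 rose and 1 fell in Late against Basal (median 1.26) and 11 rose and 1 fell in Reactivated against Basal. In Early against Basal 5 of the 16 rose, Hs3st4 (2.82-fold) among them, and 1 fell. Deptor, an inhibitor of mTOR, rose 6.30-fold, Hs3st4, a heparan sulfate sulfotransferase, 6.35-fold and Cplx3, a complexin, 5.38-fold in Late, and Tbr1, a T-box factor that specifies corticothalamic neurons, fell 1.76-fold. Some genes, Pou3f1 and Wfs1 among them, also stand on the list of CA1 markers, where 9 of 10 genes rose and 1 fell in Late against Basal. On that list 8 rose and 0 fell in Early, and 9 rose and 0 fell in Reactivated against Basal. Of 8 genes listed as pan-neuronal, 3 rose in Early, 4 in Late and 5 in Reactivated against Basal, and 0 fell.

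The lower level in Reactivated than in Late seen for Foxp2 and Bcl11b was shared by some of these genes. In Reactivated against Late, 3 of the 16 deep-layer genes rose and 4 fell, with Deptor down 3.64-fold, Cplx3 2.16-fold and Zfpm2, a cofactor of GATA factors, 1.72-fold. Tbr1 (1.70-fold), Parm1 (2.05-fold) and Etv1, an ETS factor (1.77-fold), rose. Of the 12 upper-layer genes 2 rose, Plxnd1, a semaphorin receptor (1.61-fold), and Lhx2, a LIM homeobox factor (1.44-fold), and 3 fell, among them Unc5d, a netrin receptor (1.79-fold), and Rspo1, a Wnt agonist (2.78-fold). Over all genes 10.3% rose and 12.3% fell in this comparison.

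The wider list of the subiculum and its neighbours moved in part. Of 9 genes beside Fn1, 4 rose and 0 fell in Late against Basal, with a median log2 fold change of 0.68. In Reactivated against Basal 4 rose and 0 fell, with a median of 0.05. Dlk1, a Notch-like ligand, was at 731 ± 191 normalized counts in Late and 38.2 ± 10.1 in Basal (log2 fold change 4.25 ± 0.25, adjusted p = 5.23e-08). In Reactivated against Late it fell 6.99-fold. Tpbg, a membrane glycoprotein, rose 6.66-fold in Late against Basal and fell 3.70-fold in Reactivated against Late. Wfs1, which also marks CA1, rose 3.13-fold in Late against Basal, and also in Early (2.81-fold) and Reactivated (3.51-fold) against Basal. Nts, the neurotensin precursor and a defining gene of some subiculum neurons, was scarce. It had 20.2 ± 9.01 normalized counts in Early, 16.4 ± 4.76 in Late, 22.9 ± 18.2 in Reactivated and 3.94 ± 1.59 in Basal. Its log2 fold change in Late against Basal was 2.12 (adjusted p = 0.0283, edgeR). Slc17a6, a vesicular glutamate transporter strong in the subiculum, was at 69.2 ± 9.51 in Late and 75.1 ± 41.9 in Basal and did not pass (-0.08, adjusted p = 0.904). The lists hold genes of several hippocampal fields, and the levels alone do not place the nuclei in the subiculum or the cortex.

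**Figure D4:**
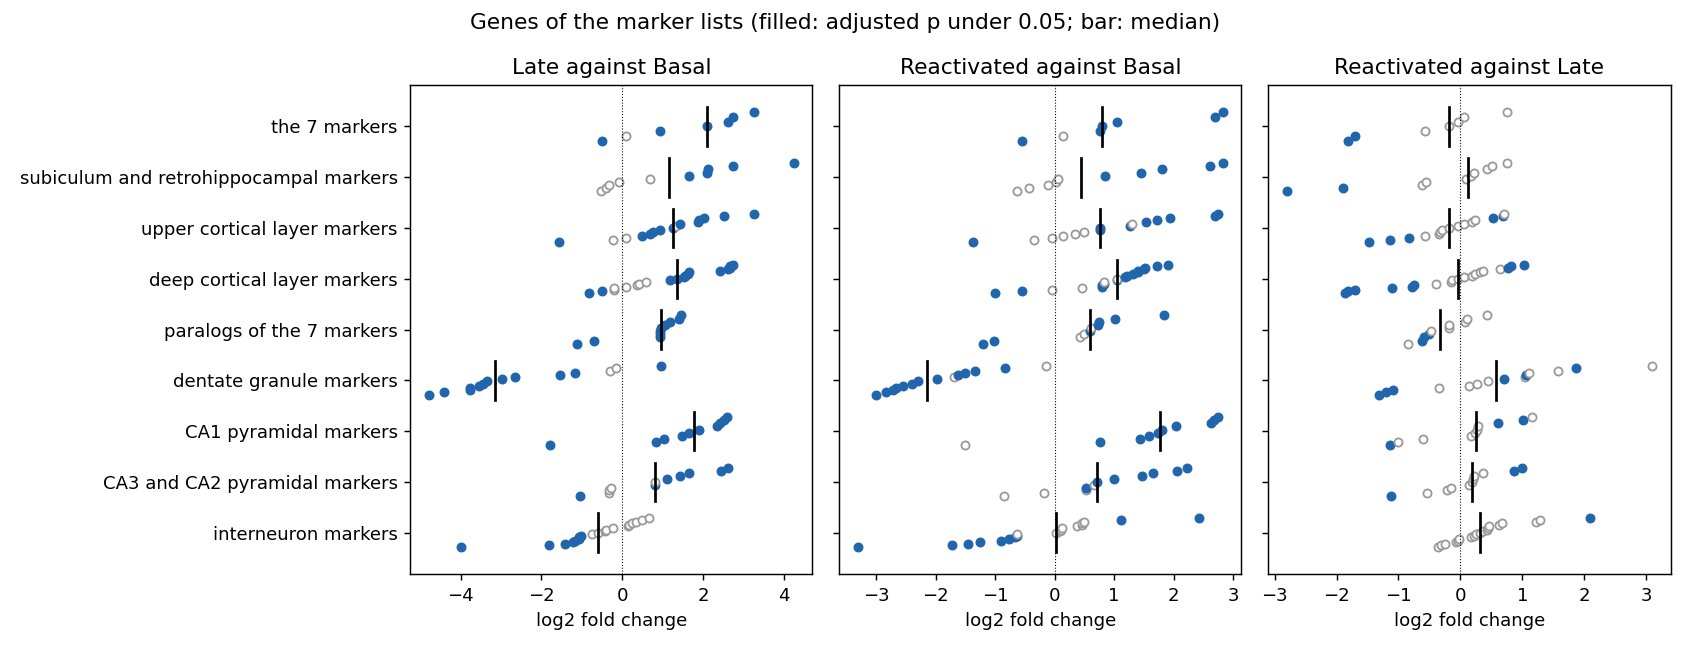
Log2 fold change of each tested gene of the marker lists, with filled points where the adjusted p was under 0.05 and a bar at the list's median, in Late against Basal, Reactivated against Basal and Reactivated against Late. In Late against Basal the medians are 2.09 for the 7 markers, 1.78 for CA1 pyramidal markers and -3.16 for dentate granule markers.

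Close relatives of the markers were also followed, and reads shared between similar sequences were not measured. Rora, the ROR receptor nearest to Rorb, rose 2.07-fold in Late against Basal (log2 fold change 1.05, adjusted p = 0.000261) and fell 1.54-fold in Reactivated against Late. Bcl11a, the partner of Bcl11b, rose 2.27-fold in Late and fell 1.50-fold in Reactivated against Late. Foxp1 and Foxp4 rose 1.90-fold and 1.91-fold in Late, and Foxp3, a factor of regulatory T cells, fell 2.19-fold at 23.6 ± 0.743 normalized counts in Late and 51.9 ± 7.16 in Basal. Among the Groucho relatives of Tle4, Tle1 also fell in Late (1.63-fold), whereas Tle2 (1.96-fold), Tle3 (2.66-fold), Tle6 (2.73-fold) and Aes, a short member of the family (1.91-fold), rose. In all, 8 of the 10 relatives tested rose and 2 fell in Late against Basal, with a median of 0.95. Already in Early against Basal 3 rose, Foxp1 (1.53-fold), Bcl11a (1.59-fold) and Tle3 (2.11-fold), and 1 fell, Tle1 (1.69-fold).

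The genes most like each marker over the 12 libraries were ranked by Pearson's r of log2 CPM among 10242 other tested genes with a mean normalized count of at least 50. All such points share their scale factor, the 4 groups and the Rn45s share, so r is a description of likeness only. The closest to Rorb were Peg12 (0.989), Eif4g3 (0.984) and Spry2, an inhibitor of receptor tyrosine kinase signalling (0.983). Those closest to Foxp2 were Dlk1 (0.982), Yy1, a zinc finger factor (0.979), and Dusp7, a phosphatase of ERK (0.977). For Bcl11b they were Fam124a (0.995), Ackr3, a chemokine scavenging receptor (0.988), and Cx3cr1, the fractalkine receptor of microglia (0.987). Fam124a had 148 normalized counts in Early, 1067 in Late, 290 in Reactivated and 179 in Basal, and Cx3cr1 had 320, 3841, 629 and 330 in the same order.

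Fn1 was closest to Rspo2, a Wnt agonist (0.973), Etv5, an ETS factor (0.968), and Gpr101, an orphan receptor (0.967). Like Fn1, Rspo2 was low in Basal, with 146 normalized counts in Early, 165 in Late, 247 in Reactivated and 55.2 in Basal. Cux2 was closest to Klc4, a kinesin light chain (0.970), Cit, the citron kinase (0.970), and Bcr (0.966), and Tle4 to Asxl3 (0.958), Pogz (0.925) and Rras2 (0.920). Asxl3, a Polycomb-related factor, had 242 in Early, 205 in Late, 203 in Reactivated and 397 in Basal. The closest to Cux1, Lrrc48, Atp10a and Entpd5, reached only 0.779, 0.750 and 0.711.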

How the data were processed

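RNA of sorted nuclei was read in 12 libraries, 3 in each of 4 groups taken from the titles. The submitters' processing notes name Bowtie2 2.0, Cufflinks 2.2, DESeq2 and mm9 with no roles. No source used here gives the counting tool, the annotation or the strand setting. The table the authors deposited holds whole-number counts per gene symbol. Its name calls them normalized, but totals differ over libraries and median-of-ratios size factors run from 0.734 to 1.46, so they were used as raw counts. Genes with at least 10 counts in at least 3 libraries (15668) were tested with edgeR 4.0.16 (TMM scaling, quasi-likelihood, 1 fit of all groups, R 4.3.3), with two-sided p-values and Benjamini-Hochberg adjustment at a threshold of 0.05. SE is the log2 fold change over the root of F. Log2 CPM used a prior count of 2. The design text calls the 3 libraries of a group biological replicates.

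The 7 markers, the lists and the tests were chosen with earlier results of these data known. All 7 are named throughout; list genes are the 3 with the smallest p in each direction in Late against Basal and in Reactivated against Late, plus all relatives tested; 3 genes are named per marker for likeness, without unnamed gene models, small RNAs and date symbols. List genes outside this rule (Rbfox3, Kcnj8, Ly6c1, Lum, Col1a1, Trem2, Aspa, Nts, Slc17a6 and the microglia genes) were named after their values were seen. Alternatives were another scaling, filter, test (DESeq2 1.42.0, limma 3.58.1), covariate or library set. Deviations from the group means of same-numbered libraries correlated above 0.1 in all 3 pairs of Early and Basal (0.331, 0.143 and 0.484). In no other pair of groups did all 3 do so. Basal 1 with Early 2 (0.223) and Basal 2 with Early 1 (0.168) also passed 0.1. The numbers, which come from the titles, are thus not shown to pair the libraries. Some genes that the rule names are not reported here.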

Additional observations from a re-analysis of the deposited data

How the results depend on the processing

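With the Rn45s share as a covariate, the genes called were 1484 in Early, 1189 in Late and 869 in Reactivated against Basal (944, 7686 and 6174 without it), 827 in Late and 130 in Reactivated against Early (6631 and 4109), and 4510 for any difference (9180). The markers called were then 1, 1 and 1 of 7 against Basal, 2 and 0 against Early, and 3 for any difference. In that fit Cux2 turned to -0.33 in Late against Basal, -0.15 in Reactivated against Basal and -0.11 in Late against Early, and Tle4 to 0.0098 in Late against Basal. With the same total per library 3 markers passed in Reactivated against Basal, and Cux1 turned to -0.77 in Late against Basal. The share of higher genes among those called was 13.4% with the same total and 51.8% with TMM in Late against Basal, 17.5% and 52.3% in Reactivated against Basal, 43.4% and 55.8% in Early against Basal, 12.3% and 51.9% in Late against Early, 14.4% and 51.6% in Reactivated against Early, and 78.1% and 45.6% in Reactivated against Late. Upper quartile scaling gave 37.1% in Late against Basal and 58.7% in Reactivated against Late. In a fit of both groups alone 2633 genes passed in Reactivated against Early. The cause of these changes was not tested.

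Leaving out 1 library gave 488 to 1224 genes and 1 to 2 markers in Early against Basal, 3 to 6 markers in Reactivated against Basal, 1703 to 4604 genes and 2 to 4 markers in Reactivated against Early, and 2135 to 3827 genes in Reactivated against Late. The counts of genes fell by more than 1.5 times without Basal 1 (598), Basal 2 (488), Early 1 (549) or Early 2 (618) in Early against Basal, without Early 1 (1801) or Early 2 (1703) in Reactivated against Early, and without Late 1 (2135) or Late 2 (2183) in Reactivated against Late. The other counts of genes and markers stayed within 1.5 times. A replicate block in the fit left 928 genes past the threshold in Early against Basal, and 7665 and 6111 in Late and Reactivated against Basal. No marker call changed in any comparison. Over all groups 4 of 18 same-numbered pairs had deviations correlated above 0.1, and 8 of 12 libraries correlated best with their own number. Counts of 36 to 84 per library limit the precision of Foxp2 in Early and Basal.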
